A study of Mus musculus with 16 samples.

Results

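The genes described are 9 histone acetyltransferase genes of the mouse, chosen by name from the RefSeq gene table of GRCm38 (mm10), out of 21887 protein-coding genes on chromosomes 1 to 19, X and Y. They are Ep300 and Crebbp, Kat2a and Kat2b, and the MYST family members Kat5, Kat6a, Kat6b, Kat7 and Kat8. All 9 were matched by symbol. The marks were mapped in mouse embryos at the late 2-cell stage, 36 h after fertilization, by native chromatin immunoprecipitation from very few cells. Control embryos had received water as zygotes. Mutant embryos had received mRNA of a mutant Hdac1 at the same stage. Hdac1 encodes a histone deacetylase, and the mutation itself, the strain and the number of embryos per library are not given in the sources used here. Each of the 4 combinations of mark and injection has 2 immunoprecipitation and 2 input libraries, but 1 deposited peak list, so no value below has a replicate error and no test of the conditions was made. Every difference is a difference between 2 lists, and sequencing depth was not analysed here.

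Histone acetyltransferases transfer acetyl groups from acetyl-CoA to lysines of histones, and histone deacetylases such as Hdac1 remove them. Ep300 (p300) and Crebbp (CBP) are large coactivators of one family and are the main writers of H3K27ac, the acetylation of active promoters and enhancers. Kat2a (GCN5) and Kat2b (PCAF) act in the SAGA and ATAC complexes, Kat5 in the TIP60 complex, Kat6a (MOZ), Kat6b (MORF) and Kat7 (HBO1) in complexes with BRPF or JADE scaffold proteins, and Kat8 (MOF) in the MSL and NSL complexes. H3K4me3 marks promoters mainly. The late 2-cell embryo of the mouse is the stage of the main wave of zygotic genome activation.

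The start sites of 8 of the 9 genes are given by the RefSeq promoter table of GRCm38.p6, which holds 300 bases for each start, 250 before it and 50 after. No entry was found for Kat6a. The promoters of the paralogues Ep300 and Crebbp and of the paralogues Kat2a and Kat2b are shown because in each of these pairs the start of one gene lay under H3K27ac and that of the other did not, as described below. Sequences run 5′ to 3′ in the direction of transcription, and capitals mark the GC box GGGCGG and the CCAAT box on either strand.
Ep300 promoter, chr15:81585964-81586263, plus strand: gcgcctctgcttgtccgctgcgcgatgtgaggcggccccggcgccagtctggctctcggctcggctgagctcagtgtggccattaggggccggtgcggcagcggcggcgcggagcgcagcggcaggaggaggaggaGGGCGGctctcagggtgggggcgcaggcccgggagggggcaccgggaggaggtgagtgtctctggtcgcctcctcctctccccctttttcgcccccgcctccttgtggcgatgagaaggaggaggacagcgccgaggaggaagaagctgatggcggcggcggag
Crebbp promoter, chr16:4213355-4213654, minus strand: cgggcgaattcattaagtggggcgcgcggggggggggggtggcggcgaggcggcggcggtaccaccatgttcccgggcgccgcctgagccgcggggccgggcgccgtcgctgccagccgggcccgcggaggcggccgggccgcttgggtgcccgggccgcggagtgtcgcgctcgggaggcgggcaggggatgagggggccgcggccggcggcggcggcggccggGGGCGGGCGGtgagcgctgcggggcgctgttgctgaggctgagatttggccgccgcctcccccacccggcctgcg
Kat2a promoter, chr11:100712418-100712717, minus strand: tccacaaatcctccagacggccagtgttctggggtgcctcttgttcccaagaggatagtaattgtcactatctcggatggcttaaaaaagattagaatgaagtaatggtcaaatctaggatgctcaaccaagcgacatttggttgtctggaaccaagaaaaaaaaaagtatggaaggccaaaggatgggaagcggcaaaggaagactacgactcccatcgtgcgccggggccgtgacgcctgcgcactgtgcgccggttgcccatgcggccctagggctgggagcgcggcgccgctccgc
Kat2b promoter, chr17:53566721-53567020, plus strand: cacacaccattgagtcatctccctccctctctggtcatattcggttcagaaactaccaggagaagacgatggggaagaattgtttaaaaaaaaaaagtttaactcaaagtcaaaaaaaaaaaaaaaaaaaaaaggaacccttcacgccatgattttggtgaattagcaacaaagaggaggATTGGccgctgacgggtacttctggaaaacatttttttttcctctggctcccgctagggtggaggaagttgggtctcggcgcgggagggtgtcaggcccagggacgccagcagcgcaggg
The Crebbp promoter had a GC content of 82.0% with 49 CG dinucleotides, and the Ep300 promoter 72.3% with 30. Kat2a followed with 54.3% and 19, and the Kat2b promoter had 47.0% and 11. Over all 32851 promoters of the table the median was 52.7% with 7 CG dinucleotides. The p300/CBP pair is thus the more GC-rich of the pairs shown. GGGCGG occurred in 7 of the 12 promoter windows of the 8 genes, against 35.7% of all windows, and CCAAT in 5 of 12, against 37.4%. The windows are not all separate, since both Kat6b windows share 285 bases, and by gene GGGCGG was found at 5 of 8 and CCAAT at 4 of 8. TATAAA, found in 13.6% of all windows, occurred in none of the 12. The CACGTG motif (E-box) occurred in 1 of the 12 windows, of Kat5, against 7.15% of all, and the NRF1 motif in 1, of Kat7, against 4.60%. The cAMP response element TGACGTCA (1.79% of all windows) and the NR5A motif TCAAGGTCA (0.423%) occurred in none. All motifs were searched on both strands, and a match is a description of letters only.

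Gene ends were examined first, in windows reaching 2 kb outward and 2 kb inward from the start and the finish of each gene, 8000 bp per gene. All 9 genes had an H3K4me3 peak in such a window in control and in mutant embryos. Of all protein-coding genes, 74.7% had one in control and 72.9% in mutant. H3K27ac peaks touched the ends of 8 genes in control, where 54.8% of coding genes had one, and of all 9 in mutant, where 58.0% did. The exception was Kat6a (MOZ), without a control H3K27ac peak at either end. No member had an H3K27ac or H3K4me3 peak at its ends in control only, whereas 22.7% of control-marked coding genes did for H3K27ac and 8.94% for H3K4me3. Kat6a was the 1 member with H3K27ac at its ends in mutant only. Of coding genes without a control peak, 34.6% had an H3K27ac peak in mutant, and 19.2% of those without control H3K4me3 had that mark in mutant. With 9 genes, these counts describe the members and set no rate for them.

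The share of end-window bases under H3K27ac peaks had a median of 50% over the 9 genes in control and 60.9% in mutant embryos. The medians over all coding genes were 5.21% and 7.51%. Kat8 (87.4% and 100%) and Ep300 (88.2% and 89.4%) were the most covered in control and mutant lists. Kat2a had 50% in control and 75.8% in mutant, and Crebbp 44.9% and 60.9%. The reverse order was found at Kat2b, with 40.2% in control and 21.7% in mutant. For Kat5 both lists gave 50%, the whole of the window at its start side and none of the other. Kat6b (47.9% and 50%) and Kat7 (77.2% and 72.2%) differed little, and Kat6a had 0% and 12.0%. In all, 38.9 kb of the 72 kb of windows lay under H3K27ac in control and 42.6 kb in mutant, a ratio of 1.10. With windows of 5 kb the ratio was 0.982, so no direction can be given for the ends as a set. Over all coding genes, the corresponding ratio was 0.860.

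H3K4me3 covered a median of 58.2% of the end windows in control and 60.2% in mutant embryos. Over all coding genes the medians were 37.4% and 40.7%. Kat5 had 63.4% in control and 87.6% in mutant, Kat2a 64.0% and 84.4%, and Kat8 90.4% and 100%. Ep300 was the only member with less in mutant, 84.7% against 78.9%. At Kat2b and Kat6a the 50% in both lists was the full window at 1 end and nothing at the other. The sums were 44.5 kb in control and 49.0 kb in mutant, a ratio of 1.10. Over all coding genes, the corresponding H3K4me3 ratio was 1.03.

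**Figure D1:**
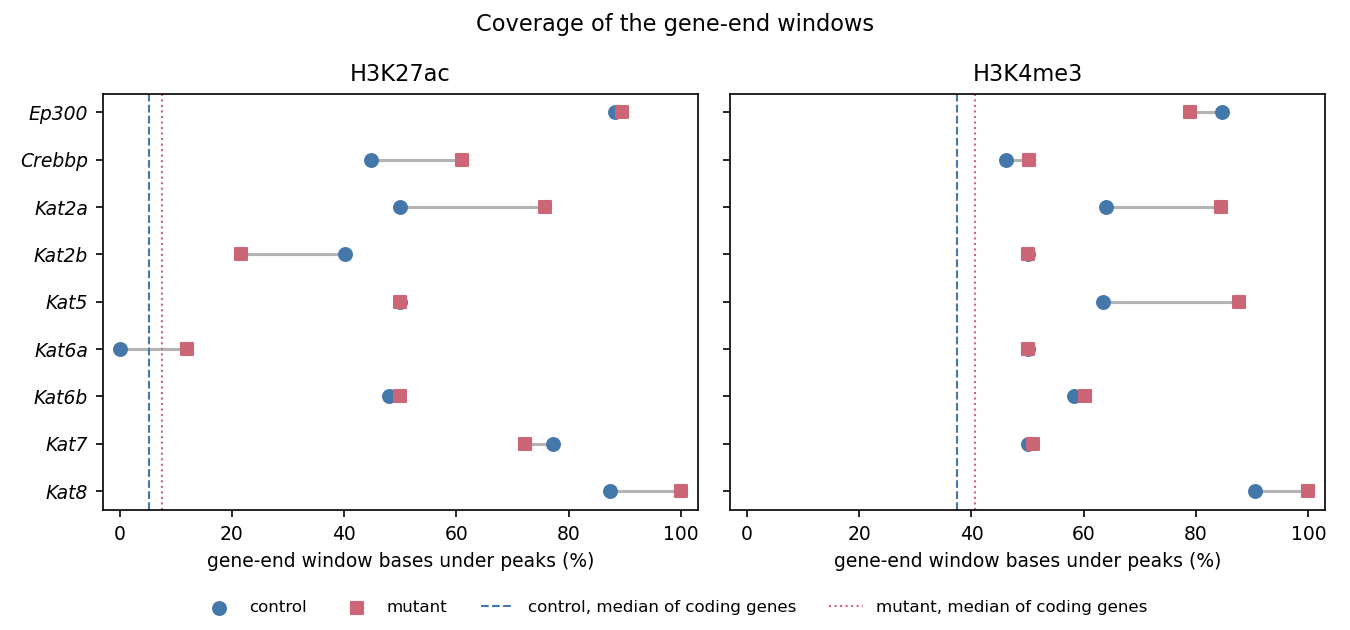
Share of the gene-end window bases (%, x axis) under H3K27ac (left) and H3K4me3 (right) peaks at each of the 9 genes; circles are control, squares mutant, and vertical lines the medians of all protein-coding genes. Kat6a has 0% H3K27ac in control and 12.0% in mutant, and Kat2b is the member whose H3K27ac share is lower in mutant by the widest margin, 40.2% against 21.7%.

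Start sites were examined next. The first listed start lay inside an H3K4me3 peak at all 8 genes in both lists, against 66.1% of coding genes in control and 62.3% in mutant. It lay inside an H3K27ac peak at 6 of 8 genes in each list, against 35.2% and 27.8% of coding genes. The exceptions were the same genes in both lists, Crebbp and Kat2b, 1 from each paralogue pair shown above.

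At Crebbp, the gene of CBP, the start site (chromosome 16, 4213404, minus strand) was 16463 bp from the nearest control H3K27ac peak. The mutant list had an H3K27ac peak of 1546 bp (4211647 to 4213192) that ended 212 bp inside the gene from the start. H3K4me3 covered the start in both lists, in a control peak of 2119 bp and a mutant peak of 3575 bp. All 300 bases of the printed Crebbp promoter were thus under H3K4me3 and none under H3K27ac in either list. Ep300, its paralogue, had both marks over all 300 promoter bases in both lists. Its start (chromosome 15, 81586214, plus strand) lay in an H3K27ac peak of 26504 bp in control, reaching 16445 bp upstream and 10058 bp downstream. In mutant embryos the peak over the Ep300 start measured 9076 bp, with 6361 bp upstream and 2714 bp downstream. H3K4me3 there spanned 6731 bp in the control list and 9869 bp in the mutant list.

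At Kat2b, which encodes PCAF, the first start (chromosome 17, 53566971, plus strand) lay in a gap between H3K27ac peaks. In control, an upstream H3K27ac peak of 42500 bp ended at 53566412 and the next, of 17348 bp, began at 53567201, 230 bp after the start. The mutant list had no H3K27ac peak in the upstream part of the window, and its peak of 3713 bp began 69 bp after the start. The printed Kat2b promoter therefore held no H3K27ac base in either list, while H3K4me3 covered all of it, in a peak of 31690 bp in control and 9149 bp in mutant. A second listed start of Kat2b (53584126) lay inside the control H3K27ac peak of 17348 bp and 252 bp from the nearest mutant H3K27ac peak. Kat2a, which encodes GCN5, had its start (chromosome 11, 100712467, minus strand) inside peaks of both marks in both lists. The H3K27ac peaks were 8360 bp (control) and 6401 bp (mutant) wide, and the H3K4me3 peaks 6540 and 8746 bp.

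The MYST genes with a listed start had both marks over it in both lists. Kat8 had an H3K27ac peak of 31395 bp over its first start in control and of 9443 bp in mutant. Its H3K4me3 peaks there spanned 7811 bp (control) and 11828 bp (mutant). Kat5, the catalytic subunit of the TIP60 complex, had H3K27ac peaks of 14069 bp and 13529 bp over its first start, the most alike pair of widths among these genes. H3K4me3 at that start spanned 1706 bp in the control list and 5718 bp in the mutant list. At Kat7, the H3K27ac peak over the start was the narrow one in control, with 1877 bp, and 8828 bp wide in mutant, where it ran 8484 bp upstream. The control peak began at 95309319, shortly after a peak of 29167 bp that ended at 95308545. In mutant a peak of 4831 bp ended at 95309209 and the peak over the start began at 95309903. Both widths at this start thus depend on how each list is divided. H3K4me3 over the Kat7 start spanned 5663 bp in the control list and 8608 bp in the mutant list. Kat6b had H3K27ac peaks of 19299 bp and 16120 bp over its first start. The H3K4me3 peak of 46243 bp over the control Kat6b start was the widest peak of any list at these genes, and 28901 bp of it lay upstream. In mutant embryos this stretch held peaks of 22786 bp and 16121 bp, the first ending 392 bp after the start.

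**Figure D2:**
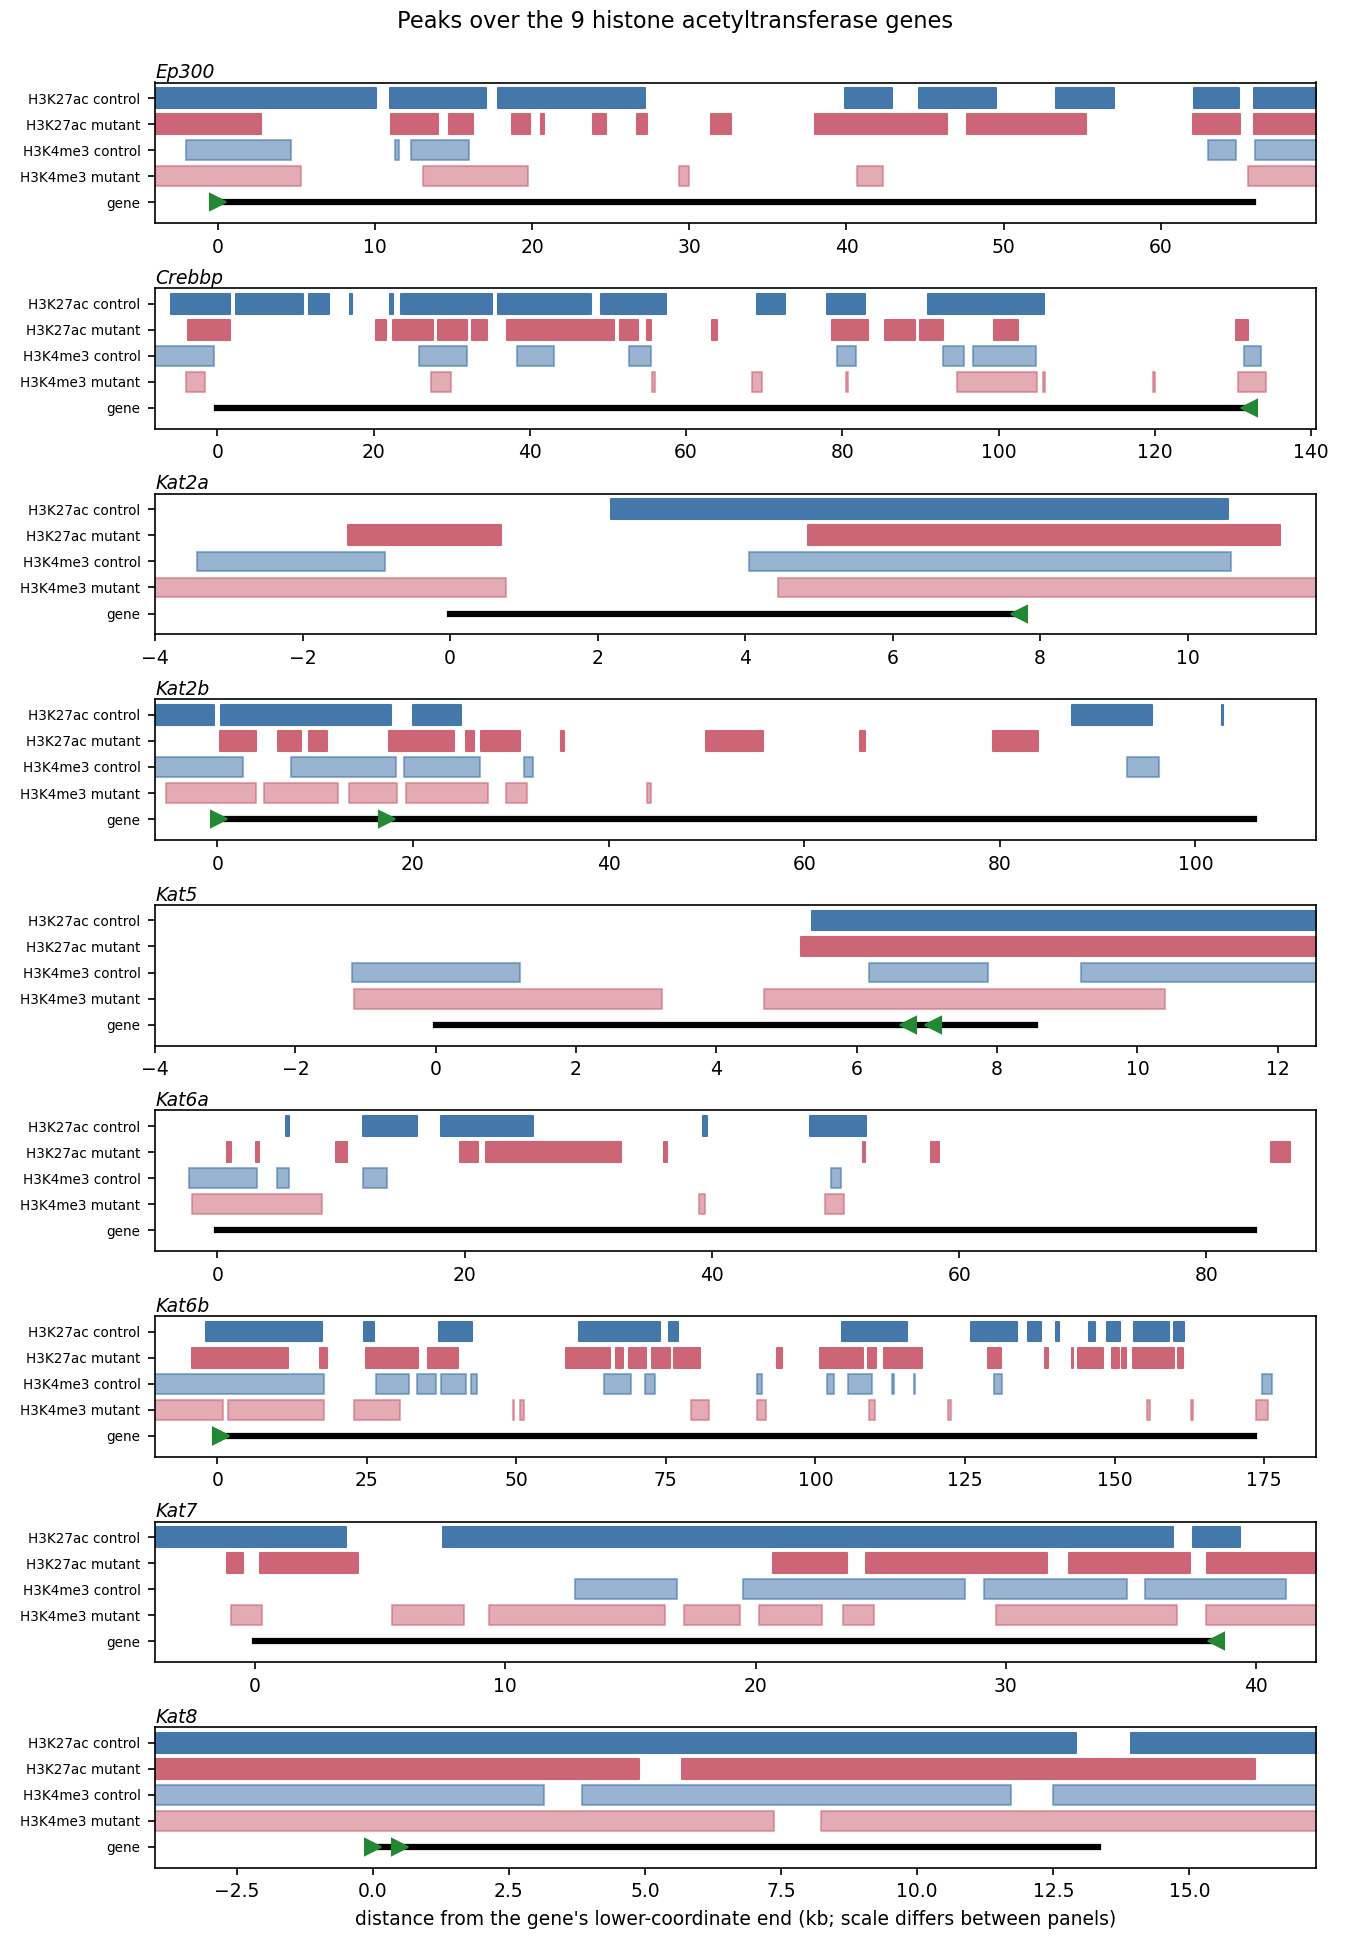
Peaks of the 4 lists (rows) over each of the 9 genes (panels), by distance from the gene's lower-coordinate end in kb; bars are peaks, the black line the gene, and green triangles the listed start sites, pointing in the direction of transcription (none listed for Kat6a). Crebbp has no control H3K27ac peak near its start, Kat2b has its first start in a gap between H3K27ac peaks, and the control H3K27ac peak of 29167 bp in Kat7 overlaps 3 mutant peaks of 2952, 7226 and 4831 bp.

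Peak widths at gene ends were then compared, taking the widest peak that touched an end window. This need not be a peak at the same place in both lists. For H3K27ac, the widest peak was narrower in mutant than in control at all 8 genes with a peak in both lists. The share of such coding genes was 67.2%. The median over the members was 24233 bp (8 genes) in control and 8828 bp (9 genes) in mutant embryos. Over all marked coding genes the medians were 7608 and 4180 bp. The widths at Kat2b were 42500 bp in control and 3713 bp in mutant, a ratio of 0.0874, the lowest of the 8. These peaks do not overlap, since the control one ended at 53566412 and the mutant one began at 53567040. The control peak that overlapped the mutant one was 17348 bp wide. Kat7 followed in ratio with 29167 and 8828 bp (0.303), and Kat8 with 31395 and 10518 bp (0.335). At Kat7 the control peak ended at 95308545 and the mutant one began at 95309903, so these are different peaks. At Kat8 the mutant list held peaks of 9443 and 10518 bp that overlapped the control peak. The first ended at 127917404 and the second began at 127918202. Nearest to equality was Kat5, with a ratio of 0.962. The count of narrower peaks, chosen after the values were seen, and these ratios depend on how near peaks are joined. With gaps below 750 bp closed and widths below 200 bp removed in all 4 lists, 5 of the 8 genes had the narrower H3K27ac peak in mutant. With gaps below 1 kb closed, 6 of the 8 did.

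For H3K4me3 the widest peak at the ends was narrower in mutant at 5 genes and wider at 4. The median over the 9 genes was 12196 bp in the control list and 9965 bp in the mutant list, the opposite order to the 5281 and 7033 bp over all marked coding genes. Of coding genes with a peak in both lists, 37.4% had a narrower one. The narrower group was Ep300 (24949 and 18284 bp), Crebbp (12196 and 3575 bp), Kat2b (31690 and 9149 bp), Kat5 (10473 and 5718 bp) and Kat6b (46243 and 22786 bp). At Crebbp the control peak lay at the finish and the mutant peak at the start, where the control peak was narrower, with 2119 bp. At Kat6b the mutant list divided the control stretch into peaks of 22786 and 16121 bp. The wider group was Kat2a (6540 and 9965 bp), Kat6a (5548 and 10518 bp), Kat7 (5663 and 8608 bp) and Kat8 (12436 and 16785 bp). At Kat2a the control peak lay at the start and the mutant peak at the finish. The mutant peak at the Kat2a start was 8746 bp wide. With windows around the listed start sites only, 2 of 8 genes had a narrower widest H3K4me3 peak in mutant, and the medians were 6636 and 8948 bp, so no direction can be given.

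Several of these peaks were shared with neighbouring genes and cannot be assigned to the member alone. The widest peak at the ends of Ep300 lay in all 4 lists at its far end, over L3mbtl2. At Crebbp, the widest peak reached Trap1 in 3 of the 4 lists. The control peaks of 42500 and 31690 bp at Kat2b reached Pp2d1, and the peaks at Kat2a reached Hspb9 and Rab5c or Dhx58. Kat8 overlaps Prss8, and its wide peaks covered Bckdk and Vkorc1 on one side or Prss8 and Prss36 on the other. The widest peaks at Kat5, Kat6b, Kat6a and Kat7 touched no other coding gene. RefSeq also lists 3 pseudogene copies, Kat2b-ps, Kat6b-ps1 and Kat6b-ps2, and reads from sequence they share with Kat2b and Kat6b may have been placed at either copy.

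**Figure D3:**
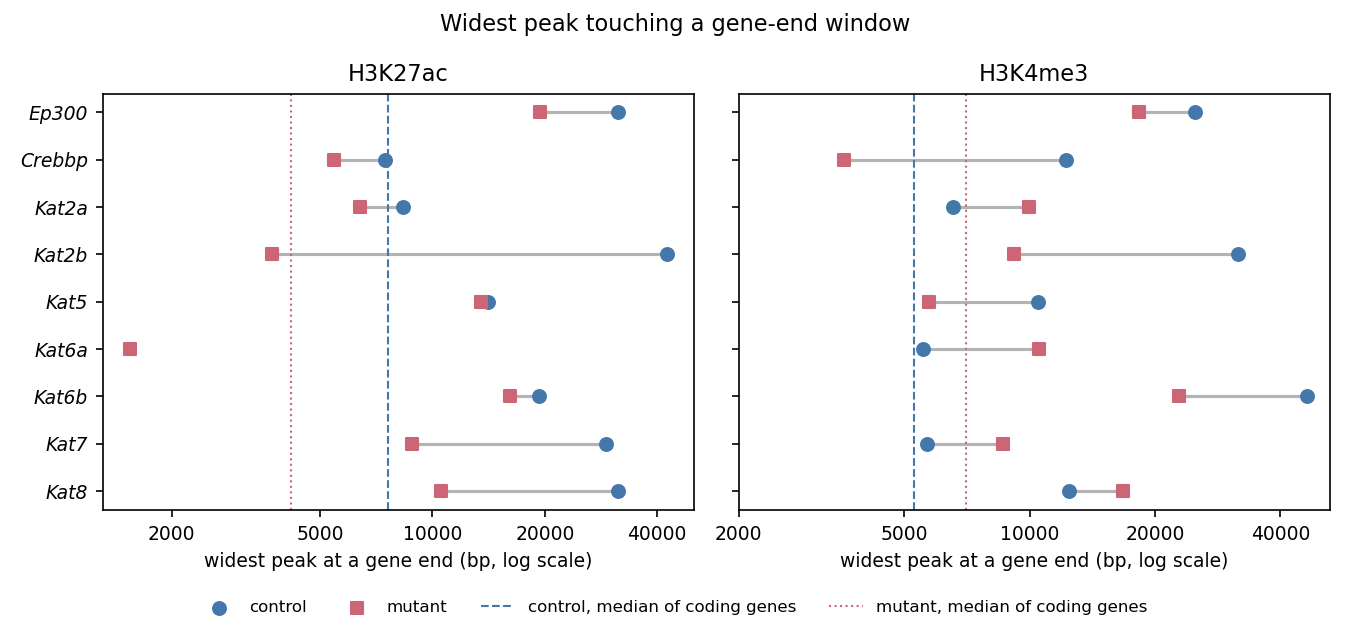
Width in bp (log axis) of the widest peak touching a gene-end window at each gene, for H3K27ac (left) and H3K4me3 (right); circles are control, squares mutant, and vertical lines the medians over marked coding genes. All 8 H3K27ac pairs have the mutant on the left, with Kat2b at 42500 and 3713 bp (peaks that do not overlap) and Kat5 at 14069 and 13529 bp. Kat6a has a mutant H3K27ac value alone. The H3K4me3 pairs go both ways.

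Over the whole loci, each gene with flanks of 2 kb, H3K27ac covered 302.7 kb of 665.5 kb in control and 259.2 kb in mutant embryos, that is 45.5% and 38.9%. The ratio was 0.856, and 0.894 when the loci of all coding genes were summed. Members with fewer covered bases in mutant numbered 6 of 9, against 52.1% of coding genes with any covered base. No member differed by 2-fold or more for either mark. For H3K27ac, 26.4% of coding genes were lower in mutant by that fold and 29.4% were higher. For H3K4me3 the shares were 13.7% and 16.9%.

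Kat7 had the lowest H3K27ac ratio among the 9, with 36.7 kb covered in control and 21.9 kb in mutant, a ratio of 0.598. This came from its body, where 30.5 kb of 34.4 kb were covered in control and 16.1 kb in mutant. A control peak of 29167 bp (chromosome 11, 95279379 to 95308545) filled most of the Kat7 gene. The mutant list held 3 peaks that overlapped this stretch, of 2952, 7226 and 4831 bp, the first beginning at 95292548 and the last ending beyond it at 95309209. The mutant list held none from 95279379 up to 95292548. Crebbp had 70.6 kb in control and 49.0 kb in mutant (0.693), and Ep300 43.9 and 34.4 kb (0.784). These 3 genes, both writers of H3K27ac and Kat7, had the lowest ratios. Kat6a (16.9 and 15.4 kb), Kat2a (7.56 and 6.95 kb) and Kat2b (32.1 and 30.6 kb) were closer to equality. The remaining genes were Kat8 (16.3 and 16.5 kb), Kat5 (5.18 and 5.34 kb) and Kat6b (73.4 and 79.1 kb), with more covered bases in mutant.

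Similar totals did not mean the same places. Of the control H3K27ac bases at Kat2b, 37.4% were also covered in the mutant list, although its total differed by a ratio of 0.951. At Kat6a the share was 31.6%, the lowest of the 9. It reached 100% at Kat5 and 95.1% at Kat8. At Kat8 a high share was fixed in advance, since 94.2% of the locus was covered in control and 95.4% in mutant. The Kat8 value therefore says nothing of likeness in position. Over the members together 57.8% of control H3K27ac bases were covered in mutant, and over all coding loci 44.1%.

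H3K4me3 covered 181.2 kb of the member loci in control and 176.9 kb in mutant, a ratio of 0.976 that became 1.002 with flanks of 10 kb. For all coding loci summed it was 1.06. The sum hides opposite differences among members. Crebbp (30.6 and 19.3 kb, ratio 0.632) and Kat6b (48.7 and 35.6 kb, ratio 0.731) had fewer covered bases in mutant. The other 7 had more, with ratios from 1.04 at Kat8 to 1.86 at Kat5 (5.44 and 10.1 kb). Between these lay Kat6a with 8.86 and 12.6 kb (1.42) and Ep300 with 14.3 and 18.5 kb (1.30). Of coding genes with any H3K4me3 base, 42.8% had fewer in mutant. Over whole loci the paralogues Ep300 and Crebbp therefore differed in direction for H3K4me3, while both had fewer H3K27ac bases in mutant. Their end windows went the other way, with H3K4me3 ratios of 0.932 at Ep300 and 1.09 at Crebbp and H3K27ac ratios of 1.01 and 1.36. Shared positions were more frequent than for H3K27ac, with 67.8% of control H3K4me3 bases covered in mutant, from 47.1% at Crebbp to 96.7% at Kat5. Over all coding loci this share was 62.8%, near that of the members.

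**Figure D4:**
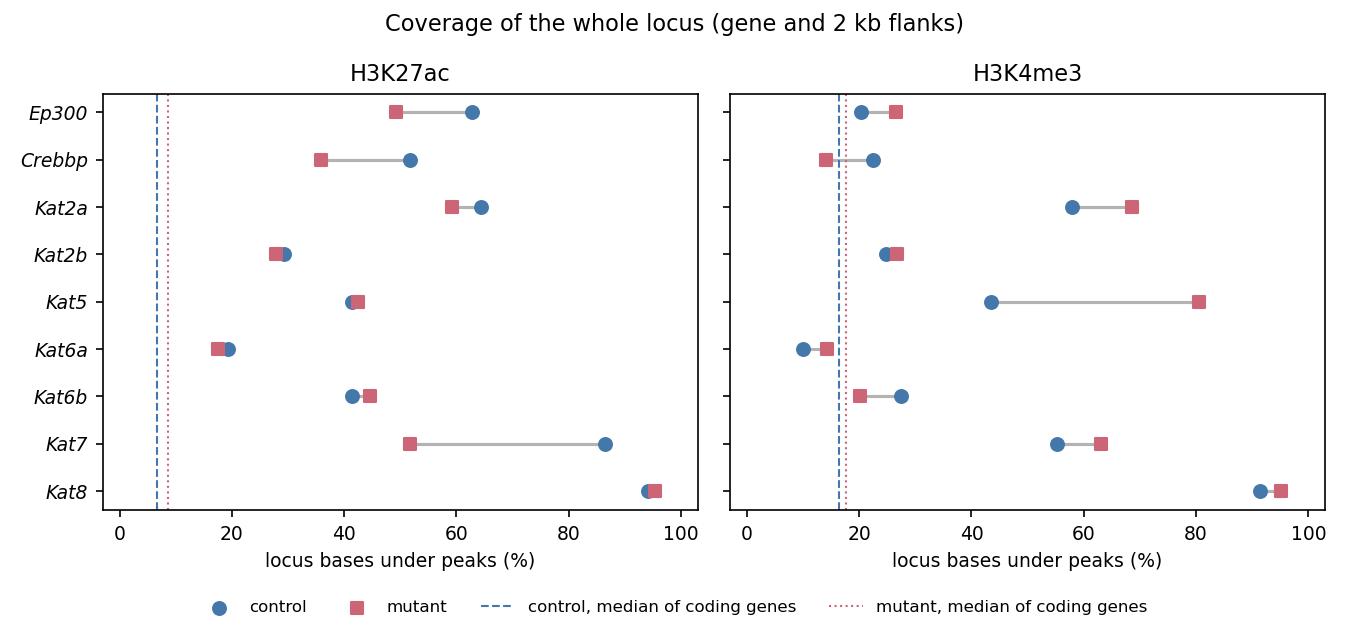
Share of all bases of each locus (gene and 2 kb flanks, %, x axis) under H3K27ac (left) and H3K4me3 (right) peaks; circles are control, squares mutant, and vertical lines the medians of all protein-coding genes. Kat7 shows the widest H3K27ac gap, 86.5% in control and 51.7% in mutant, and Kat5 the widest H3K4me3 gap, 43.4% and 80.5%.

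Levels were then ordered by the share of each locus under peaks. In control, H3K27ac covered 94.2% of the Kat8 locus, 86.5% of Kat7, 64.4% of Kat2a and 62.8% of Ep300. Crebbp followed with 51.7%, Kat6b with 41.4%, Kat5 with 41.3%, Kat2b with 29.2% and Kat6a with 19.3%. In mutant the order was Kat8 (95.4%), Kat2a (59.2%), Kat7 (51.7%), Ep300 (49.2%), Kat6b (44.6%), Kat5 (42.5%), Crebbp (35.8%), Kat2b (27.8%) and Kat6a (17.6%). Kat8 was thus the highest and Kat6a the lowest in both lists. The median coding gene had 6.69% in control and 8.68% in mutant. All 9 members were above it in both lists. For H3K4me3 the range ran from 10.1% at Kat6a to 91.5% at Kat8 in control and from 14.2% at Crebbp to 95.04% at Kat8 in mutant, around coding-gene medians of 16.4% and 17.6%. Kat6a lay below these medians in both lists and Crebbp in mutant only. No neighbours in these orders can be separated by an error, since each rests on 1 list.

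The number of peaks over the loci also differed between the H3K27ac lists. There were 49 H3K27ac peaks in control, with a median width of 5750 bp, and 77 in mutant, with a median of 2952 bp. Of these, 5 control and 0 mutant peaks exceeded 20 kb, a width passed by 1.94% and 0.171% of all H3K27ac peaks in the lists. Kat6b had 13 H3K27ac peaks in control and 21 in mutant, Ep300 8 and 12, Kat2b 5 and 10, and Kat6a 5 and 9. H3K4me3 peaks numbered 48 and 49, with medians of 3856 and 2588 bp. The whole H3K4me3 lists held 86798 peaks in control and 85780 in mutant, with medians in the opposite order, 1681 and 1748 bp. Peak numbers and widths depend on how finely each list is divided. The smallest gap between neighbouring H3K27ac peaks was 681 bp in the control list and 602 bp in the mutant list, and the smallest widths 168 and 149 bp. With the common limits on gap and width used above, the loci held 48 control and 62 mutant H3K27ac peaks, with medians of 5910 and 3887 bp. With gaps below 1 kb closed they held 39 and 55, with medians of 7422 and 5017 bp. The whole H3K27ac lists differ in the same direction in number, with 77349 peaks in control and 122487 in mutant, but little in median width, with 1177 and 1053 bp.

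Overlap of the marks was measured as the bases of a locus under an H3K27ac and an H3K4me3 peak in the same condition. The members had 148.0 kb of such bases in control and 97.4 kb in mutant embryos, a ratio of 0.658. The ratio over all coding loci was 0.699, near that of the members. Within the end windows the order was the opposite, with 30461 bp in control and 34217 bp in mutant at the members. All coding genes had 33011094 and 25575088 bp there. By gene, the locus ratio was above equality at Kat5 (1.70), Kat2a (1.22) and Kat8 (1.06) and below it at the others. The share of H3K4me3 bases also under H3K27ac was 81.7% in control and 55.1% in mutant, and 56.6% and 37.3% over all coding loci. Crebbp had the widest gap, with 93.1% in control and 35.4% in mutant, or 28.5 and 6.86 kb. Kat7 had 92.2% and 43.6%. At Ep300 every H3K4me3 base of the control list lay under H3K27ac, and 63.9% did in mutant. Kat6a had 32.8% and 4.83%, Kat2b 78.7% and 56.0%, and Kat6b 73.3% and 62.2%. At Kat2a (83.5% and 86.4%), Kat8 (93.6% and 95.2%) and Kat5 (56.0% and 51.4%) the values were closer. Those 3 are the shortest of the 9 genes, at 7.74, 13.3 and 8.54 kb, and the other 6 span 38.4 to 173.3 kb.

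**Figure D5:**
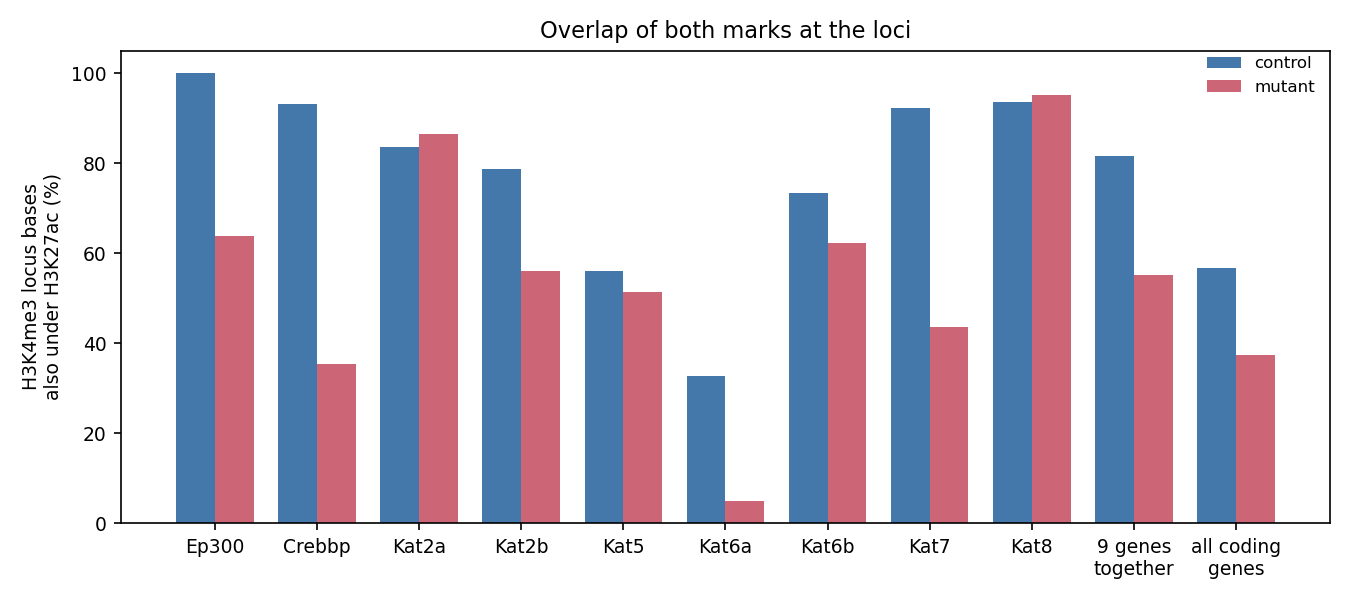
Share of the H3K4me3 bases of each locus (%, y axis) that also lie under an H3K27ac peak in the same condition, for each gene, the 9 genes together and all protein-coding genes; blue bars are control and red bars mutant. The bars stand at 93.1% and 35.4% at Crebbp and at 92.2% and 43.6% at Kat7, and differ by less than 5 percentage points at Kat2a, Kat5 and Kat8.

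The partner subunits and other acetyltransferases were examined as a list of 67 genes in 5 groups, all matched by symbol. In control, 63 of the 67 genes had an H3K27ac peak at an end and in mutant 58, of which 7 and 2 were marked in that condition alone. Which count is larger depends on the window, since windows of 1 kb gave 62 and 49 genes and windows of 5 kb gave 64 and 65. The 7 are 7 of 63 control-marked genes, where coding genes had 22.7%, and the 2 are 2 of 4 genes without a control peak, where coding genes had 34.6%. Of all coding genes 54.8% and 58.0% had a peak at an end, the opposite order to that of the 67 genes at 2 kb. H3K4me3 was found at all 67 genes in control and at 66 in mutant, where coding genes had 74.7% and 72.9%. The median share of end-window bases under H3K27ac was 50.4% in control and 35.2% in mutant, whereas the median for H3K4me3 was 50% in both.

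The genes named next had an end peak in one condition only, and several of them had covered bases elsewhere in the locus. Among the subunits of SAGA and ATAC, the complexes of Kat2a and Kat2b, 20 of 22 had H3K27ac in each list. Atxn7l3, of the deubiquitinase module, had 5633 covered end-window bases in control and 0 in mutant, and Eny2 of the same module 0 and 489. Of the 16 TIP60 complex genes, 15 had H3K27ac in control and 14 in mutant. The difference was Dmap1, with 4000 covered bases in control and 0 in mutant. Morf4l2, on the X chromosome, was the 1 gene of the list with H3K4me3 in control only, with 3530 and 0 covered bases. That is 1 of 67 control-marked genes, where coding genes had 8.94%. Of the 9 genes for partners of Kat6a, Kat6b and Kat7, 8 had H3K27ac in control and 7 in mutant. Ing4, a reader of methylated H3, and the scaffold gene Jade1 each had 4000 covered bases in control and 0 in mutant, and Jade2 had 0 and 4000. Over the whole Jade1 locus the mutant list covered 0.461 kb, and over Jade2 the control list 0.186 kb. In the MSL and NSL group of Kat8, 11 genes had H3K27ac in control and 10 in mutant, and Wdr5, a scaffold shared with H3K4 methyltransferases, had 7193 and 0 bases at its ends but 19.5 and 10.4 kb over its locus. Among the other acetyltransferases and coactivators, 9 of 9 had H3K27ac at an end in control and 7 in mutant. Taf1, the largest subunit of TFIID, had all 8000 end-window bases covered in control and 0 in mutant, with 70.8 and 29.1 kb over its locus. Elp3, of Elongator, had 1773 and 0 bases at its ends and 2.61 and 3.14 kb over its locus, more in mutant. All genes named in this group of 67 other than Morf4l2 had H3K4me3 at their ends in both lists.

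Likeness was measured as the Euclidean distance over the shares of end-window bases in the 4 lists, among the 75 other genes of both sets. Kat2b was nearest to Ogt (6.79 percentage points), Kat7 to Dr1 (7.21), Kat6b to Meaf6 (7.35) and Kat5 to Brpf1 (7.72). Kat6a was nearest to Eny2 (10.5), Crebbp to Zzz3 (10.7), Kat8 to Taf6l (13.05) and Ep300 to Tada2a (14.3). Kat2a was nearest to a member, Kat5, at 26.04. No member had its own paralogue as the nearest gene.

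Marker genes of the 2-cell embryo were counted in each list, and 7 of 8 had a peak at an end in each. The gene without one was Zfp42 in both H3K27ac lists, Zscan4c in control H3K4me3 and Obox3 in mutant H3K4me3. The H3K4me3 count is to be read against the 74.7% and 72.9% of all coding genes, and the H3K27ac count against 54.8% and 58.0%. Of 9 marker genes of cumulus or granulosa cells, which surround the oocyte, H3K27ac was found at 3 in control and 5 in mutant, and H3K4me3 at 7 and 9. Cyp19a1 and Fshr, without either mark in control, had H3K4me3 but not H3K27ac in mutant. Of 8 oocyte markers, 4 had H3K27ac in control and 7 in mutant, and 5 and 7 had H3K4me3. In mutant these equal the counts of the 2-cell markers, so the counts cannot identify the stage. Peaks show a modification and not expression, and the part of other cells in the results was not tested.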

How the data were processed

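The 4 deposited peak lists give chromosome, start and end of each peak in bp, with no score, and each is named for a group rather than a library. The submitters' processing notes name CASAVA, Trimmomatic, Bowtie2, SAMtools, Picard, MACS2 and deepTools and the build mm10, with no roles or thresholds, and whether libraries were pooled is not given in the sources used here. Groups came from the sample titles. Positions were read as BED intervals, printed 1-based, and set against RefSeq gene positions of GRCm38.p6; peaks on unplaced scaffolds (20 to 95 per list) were left out. A peak counted at a gene end when it overlapped a window by at least 1 bp. Counts, covered bases and widths were computed in Python 3.11.15 with numpy 2.4.6 and pandas 2.3.3, checked on 100 simulated interval sets. With 1 list per group there is no test, and depth is unknown. The members and gene lists were chosen with earlier results of these data known. All 9 members are named, and in each of the 5 groups of other genes those with an end peak in one condition only.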

Additional observations from a re-analysis of the deposited data

How the results depend on the processing

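No paired analysis was possible because the files hold 1 list per group and none per library, and for the same reason no library could be left out in turn. Alternatives were windows of 1 and 5 kb, start sites alone (8 members), at least 500 bp covered, flanks of 0 and 10 kb, peaks under 500 bp dropped, lists of equal size, merging below 1 kb, and common limits on gap and width. Of 211 recomputed values 202 stayed within 1.5 times the value given above and, for ratios only, on the same side of equality. For counts and shares the order of control and mutant was not part of this rule. It changed for the H3K27ac end peaks of the partner subunits and other acetyltransferases. Their counts were 63 and 58, and 64 and 65 with windows of 5 kb. The H3K27ac end-window ratio crossed from 1.10 to 0.982 with windows of 5 kb, and the H3K4me3 locus ratio from 0.976 to 1.002 with flanks of 10 kb. With peaks under 1 kb apart merged, the median widest peak was 13529 bp for mutant H3K27ac, 27729 bp for control H3K4me3 and 18284 bp for mutant H3K4me3, and the median of all mutant H3K27ac peaks over the loci was 5017 bp. At start sites alone it was 6636 bp for control and 8948 bp for mutant H3K4me3, the opposite order to that at both ends, and 2 members had a narrower H3K4me3 peak in mutant. Under common limits 5 members had a narrower H3K27ac peak in mutant. The counts of narrower peaks and the peak numbers and widths over the loci were added after seeing the data.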
